A study of Mus musculus with 10 samples.

Results

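Whole skin from imiquimod-treated mice was separated here by how much hair keratin RNA it held. Of the 10 samples of the series, 4 had a high hair keratin level and 3 a low one, and the other 3 lay between. The sides were chosen by measured values, the mean log2(CPM + 1) of hair keratin genes such as Krt25, Krt27, Krt71, Krt31, Krt35 and Krt85, with a mean above 5 for the high side and below 1 for the low side. CPM is the number of reads of a gene after scaling for the total of its sample. The high side held vehicle replicates 1, 2 and 3 and quinpirole replicate 1, and the low side held vehicle replicate 5 and quinpirole replicates 2 and 4. Vehicle replicate 4 and quinpirole replicates 3 and 5 lay between. Because the sides were selected on expression, the differences between them are given as a description with no p-value, and hair keratins and keratin-associated proteins (Krtap genes) are left out of all counts.

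Each of the 10 samples came from female BALB/c mice of 10 to 11 weeks whose shaved back had been treated daily for 5 days with a 5% cream of imiquimod, a TLR7 agonist that induces inflammation resembling psoriasis. The 5 quinpirole samples came from mice that also received 5 intraperitoneal injections of quinpirole, which activates dopamine receptor D2 (DRD2), and the 5 vehicle samples from mice given vehicle in its place. BALB/c is an albino strain, which carries pigment cells but makes no melanin. The labels do not say that each sample came from a separate mouse, so the spread between samples may be partly technical, and skin without imiquimod was not analysed here.

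Hair follicles pass through cycles of growth (anagen), regression (catagen) and rest (telogen). In anagen, matrix cells at the base of the follicle divide next to the dermal papilla, a cluster of signalling fibroblasts, and their progeny become the hair shaft and the inner root sheath that moulds it. Wnt and sonic hedgehog signals act in this growth phase, and pigment cells of the bulb pass melanin to the shaft. Keratins of the shaft and the inner root sheath are made during growth and are scarce in resting follicles.

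The hair score, the mean over 23 measured hair keratins, was 5.14, 6.01 and 6.15 in vehicle replicates 1, 2 and 3 and 6.12 in quinpirole replicate 1. It was 0.286 in vehicle replicate 5, 0.498 in quinpirole replicate 2 and 0.395 in quinpirole replicate 4. The samples between had 3.47 in vehicle replicate 4, 3.99 in quinpirole replicate 3 and 2.71 in quinpirole replicate 5. The high side therefore stopped at vehicle replicate 1 with quinpirole replicate 3 next below it, and the low side stopped at quinpirole replicate 2 with quinpirole replicate 5 next above it. Krt71, a keratin of the inner root sheath, had 932, 2122, 2206 and 2059.7 CPM in the high samples in the order just given, and 0.280, 1.17 and 1.14 CPM in the low ones. Krt31, a shaft keratin, had 32.6 to 73.1 CPM in the high samples and no read in any low sample. Hair keratin and Krtap genes together took 0.323% to 0.799% of the values of a high sample and at most 0.00293% of a low one.

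**Figure D1:**
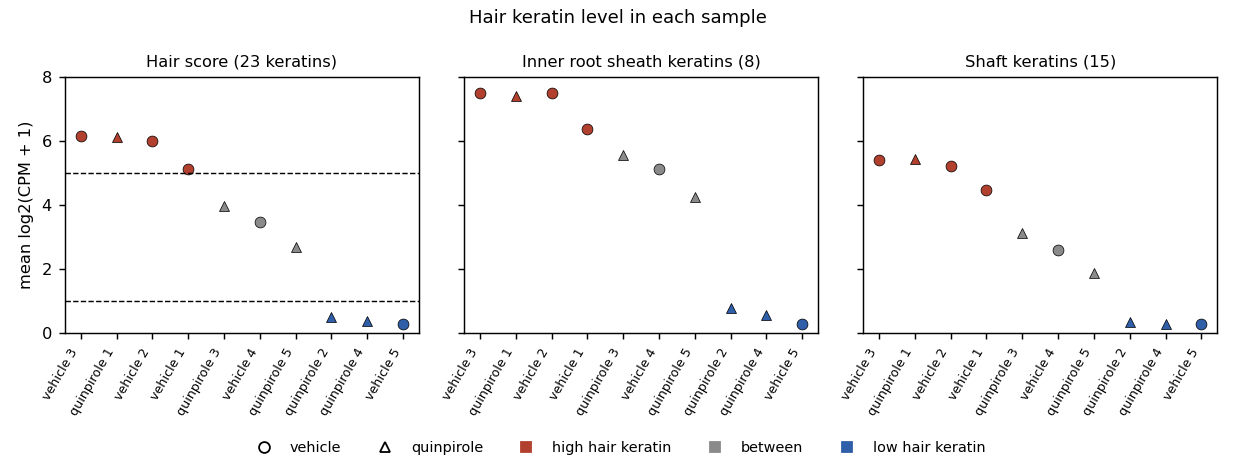
Mean log2(CPM + 1) of 23 hair keratins, of the 8 inner root sheath keratins among them and of the 15 shaft keratins, in each of the 10 samples ordered by falling hair score, with circles for vehicle, triangles for quinpirole and dashed lines at the limits of 5 and 1. The 4 high samples lie at 5.14 to 6.15, the 3 low ones at 0.286 to 0.498, and the other 3 fall between.

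Reads assigned to genes ran from 6763367 to 8361877 per sample, so 1 read was worth 0.119 to 0.146 CPM. Of 17016 genes, 14548 reached 1 CPM in at least 5 samples, and 14492 of these were neither hair keratin nor Krtap genes. Krt14, a keratin of the basal layer of the epidermis, had at least 5591 CPM in each sample.

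Across these 14492 genes, 315 were at least 2-fold higher on the log2(CPM + 1) scale in the high samples with no overlap between the sides, which is 2.17% of the genes. In the other direction 102 genes, or 0.704%, were at least 2-fold lower in the high samples with no overlap. The higher genes moved further, with a median log2 difference of 1.52, and 95 of them differed at least 4-fold and 44 at least 8-fold. The lower genes had a median of -1.19 and 1 of them, Pon1, reached 4-fold. The high side holds 4 samples and the low side 3, while the filter asks for 1 CPM in at least 5. A gene absent from the low side therefore needs fewer of the samples between to pass than a gene absent from the high side. The part of this in the balance was not tested. At any size, 1595 genes were higher in each high sample than in each low one and 1589 were lower, 11.0% of the genes in each direction. At the 2-fold limit lay Clstn2, with a difference of 1.00037, and Rbm20, with 1.00304, just inside, and Zfp608, with 0.998, just outside.

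Sample scaling moved this balance. With values scaled to reads outside hair genes the counts were 381 higher and 59 lower, and with plain CPM 374 and 61, as the median over all genes went from -0.0363 to 0.0709 and 0.0621. Each of the 73 genes named here that passed the 2-fold rule kept its sign under the 19 settings tried. For settings that change the pseudocount, change the filter or leave samples out, lack of overlap between the sides fixes this sign in advance. The 315 higher genes included 19 with provisional symbols, and 9 of these lay within 100 kb of a hair keratin or Krtap gene in the annotation, so these 9 may belong to the same clusters. In bulk tissue, fewer cells of a type and less RNA per cell cannot be told apart, which applies to each difference below.

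The highest differences belonged to non-keratin genes of the shaft and the inner root sheath, the same kind of gene as chose the sides. Of 23 tested genes of this list, 11 were past the rule in the high direction and 0 in the low, with a median difference of 0.88 against -0.0363 over all genes. Tchh encodes trichohyalin, the protein that hardens the inner root sheath and the medulla, and lies on chromosome 3 at 93442330 to 93449077 on the plus strand of mm10. It had 670.4, 1328, 1326 and 1450.3 CPM in the high samples, 138, 374 and 139 CPM in vehicle replicate 4, quinpirole replicate 3 and quinpirole replicate 5, and 9.23, 10.2 and 8.39 CPM in the low samples. No low sample came near a high one, and the log2 difference was 6.80 (SE 0.27 from the spread within sides). S100a3, a calcium-binding protein of the hair cuticle, had 63.7, 156, 179.5 and 161 CPM in the high samples and 2 reads in all over the low samples.

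The other leading genes separated the sides in the same way. Padi3, an enzyme that citrullinates trichohyalin, ran from 37.0 to 65.2 CPM in the high samples and from 0.254 to 0.559 CPM in the low ones. Dsg4, a desmosomal cadherin of the shaft, ran from 27.5 to 70.1 CPM against 0.146 to 0.839 CPM. Tgm6, a transglutaminase, averaged 24.5 ± 7.98 CPM (SD, n = 4) in the high samples and had no read in any low sample, which makes it at least 178-fold higher when 3 reads over the low samples are taken as the limit. Log2 differences were 5.78 for Prr9, 5.75 for Fam26d, 5.63 for Gprc5d, an orphan receptor, 5.56 for Lyg2, 5.11 for Crnn, which encodes cornulin, 5.05 for Crym, 4.89 for Vsig8 and 4.34 for Tchhl1, a relative of trichohyalin. Tgm6, Lyg2, Crnn and Vsig8 are not on the list. Also outside it, Col11a1, a fibrillar collagen chain, differed by 4.84 and Lrrc15, a leucine-rich repeat membrane protein, by 4.43. Members that did not pass included Tgm3, the transglutaminase that cross-links hair and epidermal proteins, at -0.32, and Gsdma3, a gasdermin of the follicle, at -0.59.

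Of 20 tested transcription factors of the follicle, 8 were past the rule as higher and 0 as lower, with a median of 0.73. Hoxc13, a homeobox factor that drives hair keratin genes (chromosome 15, 102921103 to 102928814, plus strand), had 13.7, 38.9, 41.0 and 26.3 CPM in the high samples and 1.68, 2.48 and 2.42 CPM in the low ones. Its 3 values between were 11.1, 9.95 and 5.04 CPM, all below the lowest high sample and above the highest low one. Lef1, the partner of beta-catenin in matrix and precortex cells (chromosome 3, 131110471 to 131224356, plus strand), had 9.93, 40.7, 39.05 and 20.6 CPM against 1.96, 2.04 and 2.42 CPM, 12.9 times as much on average. The homeobox genes Msx2, Dlx2 and Msx1 differed by 2.58, 2.01 and 1.75. Cux1, Dlx3 and Trps1, at 1.36, 1.16 and 1.12, completed the count. Foxn1, the factor mutated in nude mice, stood at 0.77 and Gata3, a factor of the inner root sheath, at -0.02, so the list did not move as one.

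**Figure D2:**
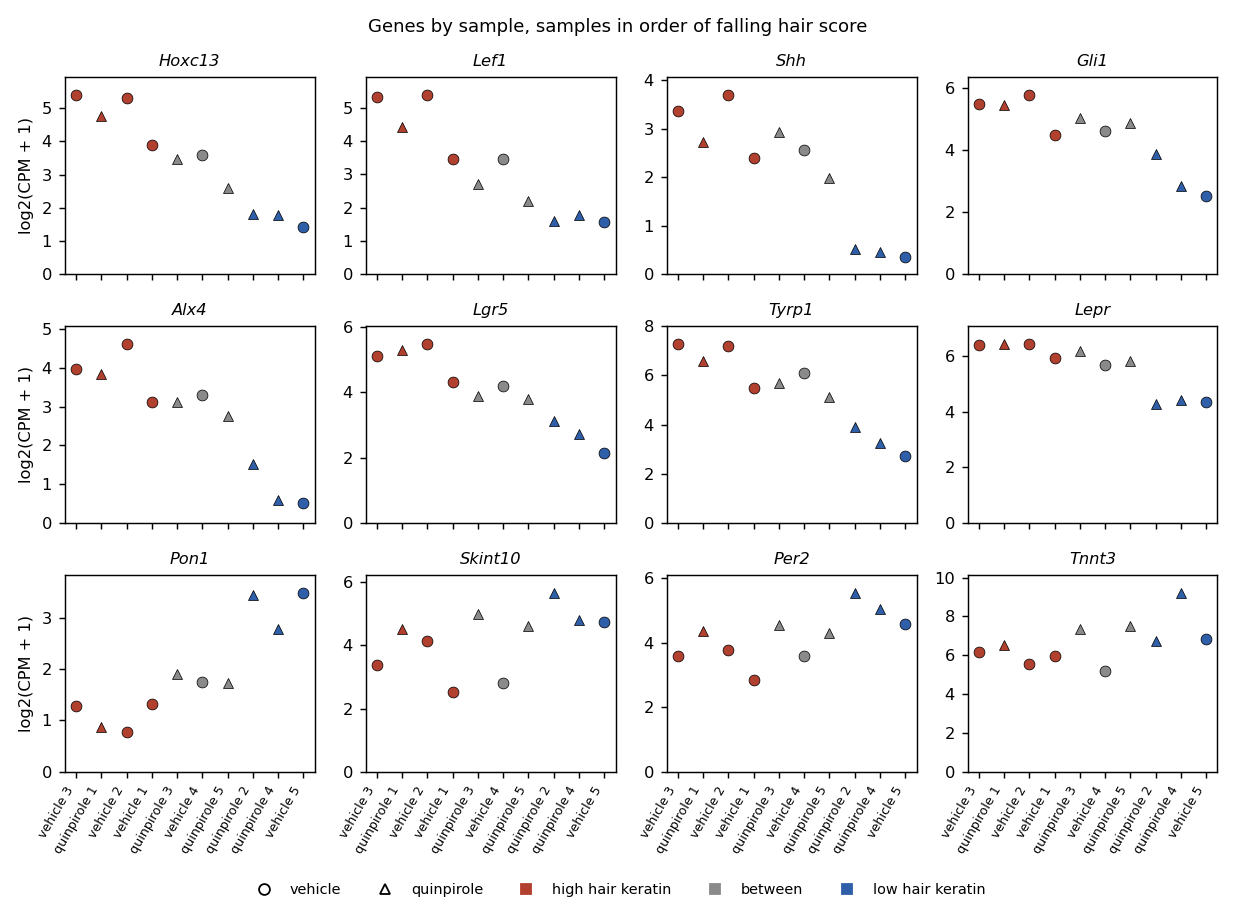
Level of 12 genes as log2(CPM + 1) in each of the 10 samples, ordered by falling hair score, with circles for vehicle, triangles for quinpirole and colour for the side. Hoxc13, Lef1, Shh, Gli1, Alx4, Lgr5, Tyrp1 and Lepr are higher in all 4 high samples than in the 3 low ones, and Pon1, Skint10, Per2 and Tnnt3 are lower in them.

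Among 35 tested genes of Wnt signalling, 12 were past the rule as higher and 1 as lower, with a median of 0.55. The ligand Wnt10b, which accompanies the start of hair growth, had 4.65, 9.40, 11.7 and 4.28 CPM in the high samples and 0.280, 0.728 and 0.254 CPM in the low ones. Wnt11, a further ligand, differed by 2.32. Feedback inhibitors were among the higher genes, namely Nkd2 at 1.85 and Wif1, a secreted Wnt binder, at 1.77. Bambi, a pseudoreceptor that damps BMP and TGF-beta signals, ran from 24.0 to 41.7 CPM in the high samples and from 2.91 to 3.78 CPM in the low ones, a log2 difference of 2.95. Axin2, the general target of the pathway, stood at 0.30, under the 2-fold limit. The lower gene was Sfrp4, a secreted Wnt antagonist, at -1.34. Sfrp4, Axin2, Foxn1, Gata3, Tgm3 and Gsdma3 were singled out after their values were seen.

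Hedgehog genes were among the higher ones, within a list of 36 tested genes of BMP, hedgehog, Notch and Fgf signalling that held 11 higher, 0 lower and a median of 0.50. The ligand Shh (chromosome 5, 28456815 to 28467256, minus strand) had 4.27, 11.96, 9.30 and 5.59 CPM in the high samples and 0.280, 0.437 and 0.382 CPM in the low ones. Its levels rest on 8 reads over the low samples. The receptor Ptch1 differed by 1.81, and the target Gli1 had 21.4, 53.7, 43.9 and 42.9 CPM against 4.75, 13.7 and 6.23 CPM. Hhip, which binds and limits hedgehog ligands, differed by 2.56. Other higher genes were Smad6, Id3, Gli3, Bmp4, Fgfr2 and Notch1, between 1.02 and 1.49.

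The dermal papilla list had 11 higher genes of 20 tested, 0 lower ones and a median of 1.11, and some of its members are also hedgehog or Wnt genes (Hhip, Notum and Rspo3). Alx4, a homeobox factor of the papilla, had 7.67, 23.6, 14.7 and 13.4 CPM in the high samples and 0.420, 1.89 and 0.509 CPM in the low ones. Corin, a serine protease that marks the papilla, ran from 4.78 to 21.1 CPM against 1.31 to 1.68 CPM, and Scube3, a secreted protein, had a log2 difference of 2.57. Lepr, the leptin receptor, varied little within each side, at 59.97, 84.5, 83.5 and 85.2 CPM against 19.2, 18.1 and 20.5 CPM. Stem cell genes of the bulge, the resting reservoir of the follicle, had 3 higher of 19 tested and a median of 0.21, which went to -0.0567 without vehicle replicate 5. The 3 were Lgr5, at 18.7 to 43.4 CPM against 3.36 to 7.72 CPM, Lhx2 and Tbx1. Cd34, the surface marker of bulge cells, stood at -0.35.

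Pigment cell genes had the highest median of the 30 lists, 2.03, with 10 of 17 tested genes higher and 0 lower. Tyrp1, a melanin-synthesis enzyme (chromosome 4, 80834123 to 80851719, plus strand), had 44.0, 147, 155 and 94.4 CPM in the high samples and 5.59, 14.0 and 8.39 CPM in the low ones. Pmel, the fibril protein of the pigment granule, ran from 28.0 to 93.8 CPM against 2.66 to 9.03 CPM. The transporters Slc45a2 and Oca2 and the channel Trpm1 differed by 3.37, 3.02 and 3.25, and Tyr, Dct, Mlana, Slc24a5 and Mc1r made up the 10, between 1.88 and 2.97. Genes of pigment cell identity differed less, with Mitf, their master regulator, at 0.73 and Sox10, a neural crest factor, at 0.47. The median of the list ranged from 1.15 to 2.72 over the settings tried. Mitf, Sox10 and Cd34 were named after their values were seen.

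Of 48 tested genes of cell division, 0 were past the 2-fold rule in either direction, and the median difference was 0.48. A positive difference was found for 45, and 25 were higher in each high sample than in each low one, beside 11.0% of all genes. Top2a, a topoisomerase of dividing cells, had 293 to 352 CPM in the high samples and 137 to 232 CPM in the low ones. Mki67, the usual marker of dividing cells, had 483 to 577.5 CPM against 228 to 494 CPM, so its ranges overlapped.

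**Figure D3:**
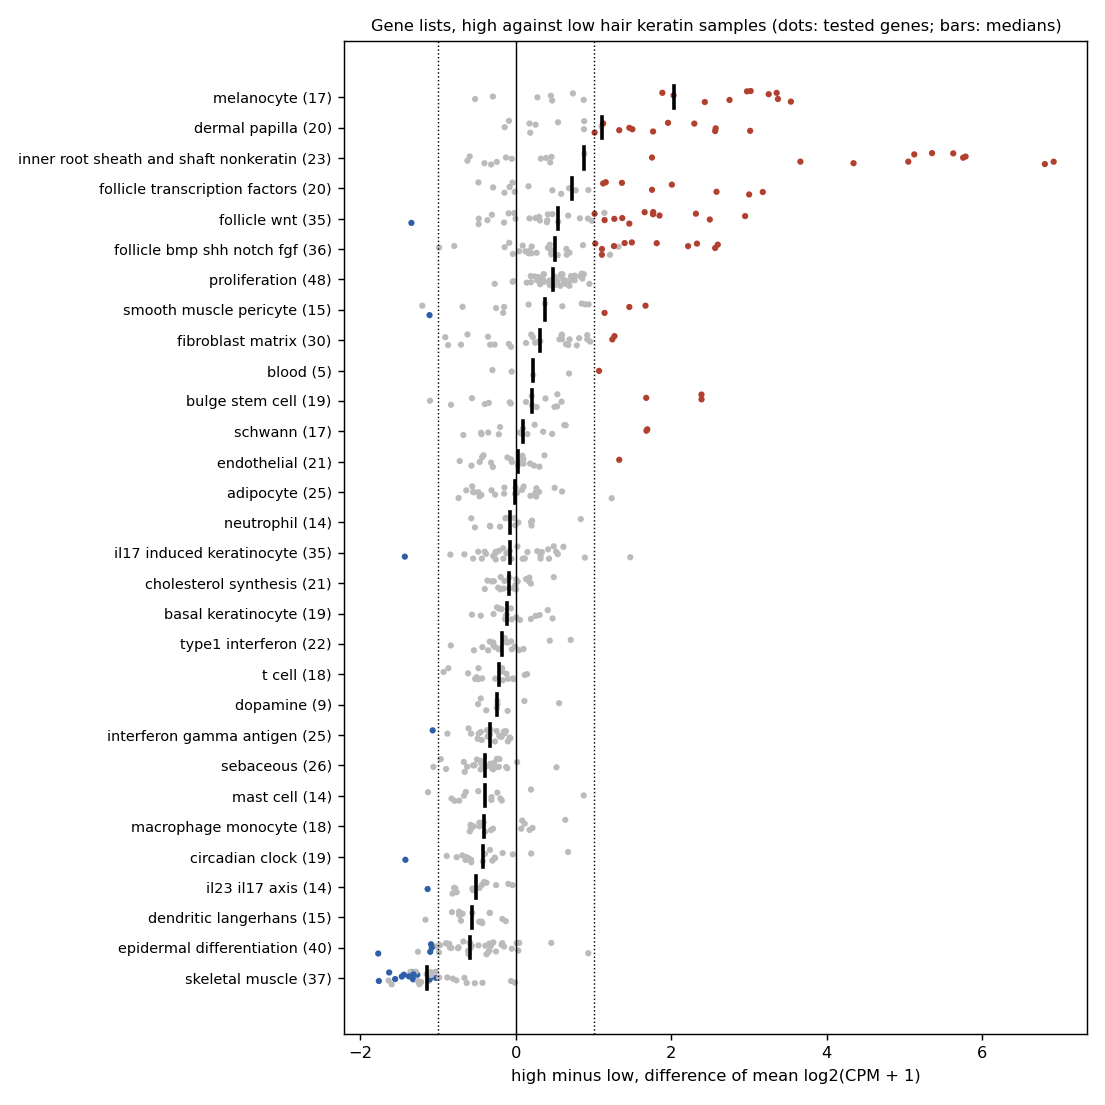
Difference between high and low samples on the log2(CPM + 1) scale for the tested genes of 30 lists (number in parentheses), with black bars at the list medians, red for genes past the 2-fold rule as higher and blue as lower. Pigment cell (median 2.03) and dermal papilla (1.11) genes lie farthest right and skeletal muscle (-1.15) genes farthest left.

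Skeletal muscle was the list with most genes on the lower side. Of 37 tested genes, 14 were lower in the high samples and 0 higher, with a median of -1.15. Tnnt3, a troponin of fast muscle, had 61.7, 46.3, 70.5 and 93.01 CPM in the high samples and 115, 107 and 598 CPM in the low ones. The 598 CPM belonged to quinpirole replicate 4, and the low mean was 273 ± 281 CPM (SD, n = 3). Myot, Xirp2 and Mylpf, proteins of the contractile apparatus, differed by -1.63, -1.47 and -1.44, the muscle subunit Cox6a2 of cytochrome oxidase by -1.76, Ky by -1.50 and the small heat shock protein Hspb6 by -1.50. The summed level of the 37 genes was 2535 to 4215 CPM in the high samples and 4121 to 19114 CPM in the low ones, so the sums overlapped, and vehicle replicate 4, a sample between, had the lowest of all at 1879 CPM. Without quinpirole replicate 4 the median was -0.61, and with treatment as a covariate 4 of the 14 genes stayed past the rule, Eno3, Mb, Tnnc2 and Tnni2, named here for that reason. Whole-skin samples can carry the muscle sheet beneath, and its part in the lower genes was not tested.

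Other tissue lists had at most 3 genes past the rule in a direction. Over all genes, 2.17% were past it as higher and 0.704% as lower, and 11.0% were higher at any size without overlap. Fat cell genes (25 tested) had a median of -0.01 and sebaceous gland genes (26) one of -0.39 with 2 positive, both with 0 genes past the rule, and Car3, a carbonic anhydrase of fat, had 607 to 786 CPM in the high samples and 810 to 1392 CPM in the low ones. Cholesterol synthesis genes (21) had a median of -0.08 and basal keratinocyte genes (19) one of -0.12, again with 0 past the rule. Fibroblast matrix genes (30) had a median of 0.30 with 12 higher at any size without overlap and 2 past the rule, Col1a1, the main collagen chain of dermis, at 716 to 1359 CPM against 227 to 591 CPM, and Col12a1 at 1.24. Endothelial genes (21) had a median of 0.03, and their 1 higher gene, Sox18 at 1.33, is also a dermal papilla gene. Smooth muscle and pericyte genes (15) had 6 higher at any size without overlap, 3 past the rule, Cspg4, Actg2 and Tagln, and 1 lower, Des, which skeletal muscle shares, with a median of 0.37. Schwann cell genes (17) had 2 higher, Gfra3 and Ncam1, and a median of 0.09, and blood genes (5) had 1 higher, Slc4a1, an anion exchanger of red cells, at 1.07.

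Of 40 tested genes of late epidermal differentiation, 4 were past the rule as lower in the high samples and 0 as higher, and the median was -0.59. At any size 19 were lower without overlap, beside 11.0% of all genes, and 5 had a positive difference, up to 0.93. Krt77, a keratin of suprabasal cells and sweat ducts that lies beside the hair keratin cluster on chromosome 15 (101858731 to 101869705, minus strand), had 0.880, 2.42, 1.44 and 4.52 CPM in the high samples and 6.15, 14.1 and 9.41 CPM in the low ones. The other 3 were the late cornified envelope genes Lce1i, Lce1c and Lce1b, at -1.10, -1.09 and -1.08. Members of this family are near-identical copies, so reads may be divided between them. The summed level of the list was 28543 to 34486 CPM in the high samples and 43922 to 45589 CPM in the low ones, with no overlap. With treatment as a covariate Krt77 alone of the 4 stayed past the rule.

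Of the lower genes outside these lists, Pon1, a paraoxonase better known from liver and blood (chromosome 6, 5168090 to 5193946, minus strand), had the greatest difference. It had 1.51, 0.712, 1.44 and 0.833 CPM in the high samples, 2.38, 2.73 and 2.33 CPM in the samples between and 10.2, 9.90 and 5.85 CPM in the low ones. All samples between thus fell in the gap, and the difference was -2.36 within vehicle and -2.24 within quinpirole. Slurp1, a secreted protein of the epidermis, had 22.6 to 52.0 CPM against 71.0 to 151 CPM, and Skint10, a relative of the Skint1 gene that selects epidermal gamma-delta T cells, had 4.78 to 22.004 CPM against 25.9 to 50.0 CPM. Mug1, a protease inhibitor, Fosl1, a subunit of the AP-1 transcription factor, and Rgs4, a regulator of G protein signals, differed by -1.56, -1.50 and -1.47, with at most 28.0 CPM in any sample. Per2, a core clock gene, had 6.16, 12.7, 11.1 and 19.7 CPM in the high samples and 22.9, 46.2 and 32.4 CPM in the low ones, and was the 1 gene past the rule of 19 clock genes, whose median was -0.42.

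Lists of inflammation had few genes past the rule. Keratinocyte genes induced by IL-17 (35 tested) had a median of -0.08 and 1 lower gene, Cxcl1, a chemoattractant of neutrophils, at 3.70 to 10.4 CPM against 11.7 to 27.6 CPM. The IL-23 and IL-17 axis (14) had a median of -0.51 and 1 lower gene, the cytokine Il18, at -1.13. With treatment as a covariate neither stayed past the rule, with Cxcl1 at -1.15 and Il18 at -0.85. Antigen presentation and interferon-gamma genes (25) had a median of -0.33 and 1 lower gene, B2m, the light chain of MHC class I, at 590.3 to 936.5 CPM against 1059 to 2365 CPM, a difference of -0.81 with treatment as a covariate. Medians were -0.07 for neutrophil genes (14), -0.41 for macrophage genes (18), -0.56 for dendritic and Langerhans cell genes (15), -0.22 for T cell genes (18), -0.40 for mast cell genes (14) and -0.18 for type I interferon genes (22), each with 0 genes past the rule. The difference was negative for all 14 IL-23 and IL-17 axis, all 25 antigen presentation and all 15 dendritic genes. At any size without overlap, 4, 2 and 5 of these were lower, beside 11.0% of all genes. So were 4 IL-17-induced, 3 macrophage, 3 T cell, 1 neutrophil, 1 mast cell and 0 type I interferon genes. In the high direction, 1 mast cell and 1 type I interferon gene lay without overlap. Dopamine genes (9) had a median of -0.24 and 0 past the rule, with 4 lower and 0 higher at any size without overlap. Drd1 was at most 0.629 CPM in any sample, below the filter, and the other dopamine receptors were not analysed here.

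The samples between set neither side and show how far each gene follows the keratins. Over the 315 higher genes, the median position on the way from the low mean, 0%, to the high mean, 100%, was 54.7% in vehicle replicate 4, 53.5% in quinpirole replicate 3 and 33.6% in quinpirole replicate 5, on the log2 scale. In 122 of the 315, or 38.7%, all 3 samples lay between the sides. Among hedgehog genes, mean positions were 79.3% for Gli1, 78.9% for Shh, 68.9% for Ptch1 and 62.1% for Hhip. Lepr was at 78.8%. Keratins that chose the sides reached similar positions, with 76.6% for Krt71 and 76.4% for Krt25. The median was 65.3% for the inner root sheath keratins and 45.4% for the shaft keratins. Transcription factors were spread, with 32.4% for Msx2, 38.1% for Lef1, 48.8% for Hoxc13, 72.0% for Lhx2 and 72.4% for Alx4. So were the leading shaft and sheath genes, from 32.9% for Vsig8 to 57.1% for S100a3, 61.2% for Prr9 and 62.4% for Tchh. Pigment cell genes were spread over this range, from 38.8% for Oca2 to 70.2% for Tyrp1. These are 3 samples, so the order of genes is a description of them, and low-level genes are compressed by the added 1 CPM.

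**Figure D4:**
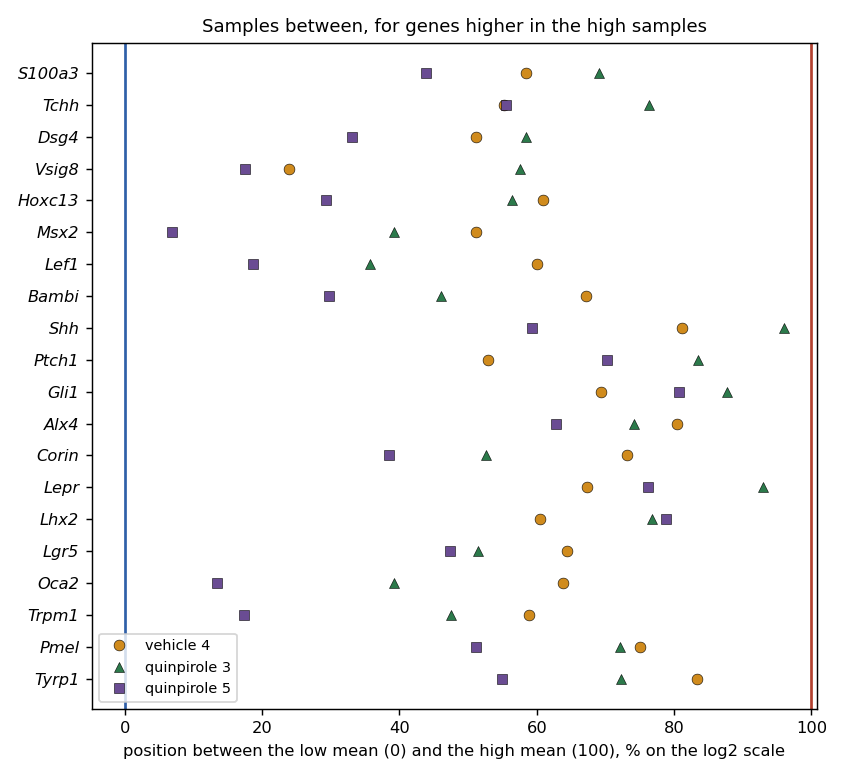
Position of vehicle replicate 4, quinpirole replicate 3 and quinpirole replicate 5 between the mean of the low samples (0%) and that of the high samples (100%) on the log2(CPM + 1) scale, for 20 genes higher in the high samples. The hedgehog genes Shh, Ptch1 and Gli1 and the receptor gene Lepr lie to the right with Alx4, Lhx2 and Tyrp1, and Vsig8, Msx2 and Lef1 to the left.

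The lower genes were placed otherwise from sample to sample, though the median of their mean positions was 55.2%, beside 47.5% for the higher genes. Over the 102, the median position was 108% in vehicle replicate 4, which puts this sample with the high ones, and 34.1% and 31.2% in quinpirole replicates 3 and 5. Pon1 was 1 of 3 lower genes, or 2.94%, in which all 3 samples lay between the sides. This share depends on the room between the sides, and the lower genes differed less, with a median of -1.19 beside 1.52. Among genes without overlap at any size, 1595 higher and 1589 lower, 271 had all 3 samples between. Vehicle replicate 4 is the only vehicle sample among those between. It also had the lowest summed level of the skeletal muscle list of all samples, 1879 CPM. The parts of treatment and of muscle in these positions were not tested.

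The high side held 3 vehicle samples of 4 and the low side 2 quinpirole samples of 3, so each difference was also taken within each treatment, where 1 arm is a single sample and no error can be given. The higher genes had a median of 1.60 among vehicle samples and 1.51 among quinpirole samples, and 282 of 315 reached 2-fold in each. Tyrp1 differed by 3.94 among vehicle and 3.01 among quinpirole samples, and Hoxc13 by 3.44 and 2.98. The lower genes had medians of -0.95 and -1.11, with 45 of 102 at 2-fold among vehicle and 67 among quinpirole samples. With treatment as a covariate, 307 of the 315 higher genes and 47 of the 102 lower genes stayed past the rule.

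**Figure D5:**
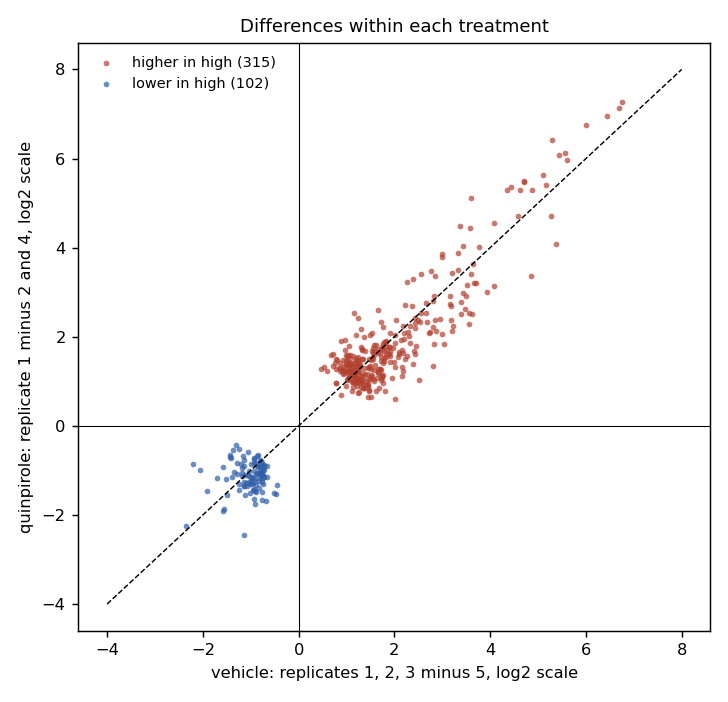
Difference on the log2(CPM + 1) scale among vehicle samples (replicates 1, 2 and 3 minus 5, horizontal) and among quinpirole samples (replicate 1 minus 2 and 4, vertical) for the 315 higher and 102 lower genes, with the line of equality. All points lie in the quadrant of their own direction, since genes without overlap between the sides must do so.

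The comparison the labels give, quinpirole against vehicle over all 10 samples, was tested with limma and Benjamini-Hochberg adjustment over 14548 genes, and it shares its samples with the sides. It called 3 genes at an adjusted p of 0.05, or 0.0206% of the genes, and 1657, or 11.4%, had an unadjusted p under 0.05. Of the 315 genes higher in the high samples, 0 were called, with a smallest adjusted p of 0.222 and 24 under an unadjusted 0.05. Their median difference was -0.54 with quinpirole, and 304 had a negative sign. Because the high side is mostly vehicle and the low side mostly quinpirole, choosing the genes by the sides favours this sign in advance. With the hair score as a covariate the median was -0.07, a move that choosing genes by the keratin sides also favours. In that fit limma called 2 of the 315, beside 14 of all 14548 genes. Peg3, an imprinted zinc finger gene, differed by -0.92 with quinpirole (SE 0.14, adjusted p = 0.0434), against an adjusted p of 0.222 without the score. Wnt5a, a non-canonical Wnt ligand, differed by -0.72 (SE 0.12, adjusted p = 0.0459), against 0.232 without it, and both were singled out after their values were seen.

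Peg3 had 43.8, 72.2, 45.2, 36.1 and 22.2 CPM in vehicle replicates 1 to 5 and 31.2, 10.8, 23.03, 9.54 and 14.6 CPM in quinpirole replicates 1 to 5. Within the high samples, the samples between and the low samples, each vehicle value was above each quinpirole value, while the ranges of the treatments overlapped over all 10 samples. Wnt5a had 47.3, 62.2, 57.9, 39.9 and 23.1 CPM in vehicle replicates 1 to 5 and 36.8, 12.7, 23.4, 18.4 and 19.1 CPM in quinpirole replicates 1 to 5, with the same order within each set. Of the 102 lower genes, 0 were called by limma without or with the score, with a smallest adjusted p of 0.182 without it. An unadjusted limma p under 0.05 was found for 62 of the 102 without the score, beside 11.4% of all genes. With the score it was found for 58 of them. The 102 genes had a median difference of 0.78 with quinpirole and 98 had a positive sign, which choosing them by the sides favours in advance. With the hair score as a covariate the median was 0.56. Skint10 differed by 1.41 with quinpirole (SE 0.39, limma adjusted p = 0.229) and by 1.19 with the score included (SE 0.35, limma adjusted p = 0.234). Per2 differed by 1.09 (SE 0.31, limma adjusted p = 0.235) and by 0.83 with the score included (SE 0.23, limma adjusted p = 0.197). Pon1 differed by 0.42 with quinpirole and by -0.17 with the score included. The sides and the treatments share samples, and the part of each in the other lower genes was not tested.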

How the data were processed

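Whole-skin total RNA was depleted of ribosomal RNA before sequencing, per the labels' protocols. Tools listed in the submitters' processing notes are RSEM 1.3.0, Trimmomatic 0.38, edgeR and Bowtie2, with the build mm10 and no roles. The deposited values are a normalised signal per gene and sample. They came out as whole reads in 100% of cases (tolerance 1e-06 of a read), and a TMM factor from the recovered reads matched the column totals, so values are CPM on effective library sizes. They were transformed as log2(CPM + 1), and genes with 1 CPM in at least 5 samples were kept. Hair keratin and Krtap genes (75 in the table, 56 past the filter) were left out.

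The samples and the 30 gene lists were chosen with earlier results of these data known. Named genes are the 15 greatest differences per direction among those past the 2-fold rule with 5 CPM or more on the higher side and no provisional symbol, up to 5 per list (or the 2 highest in level where none passed), and dopamine receptors, and others are marked in the text; 1 named gene is not reported here. Treatment was tested with limma 3.58.1 in R 4.3.3, two-sided, with edgeR 4.0.16 and DESeq2 1.42.0 on recovered reads as alternatives, beside other pseudocounts, filters, scalings, covariates and samples left out. The steps were tested on simulated data. Positions came from GENCODE on the same build, where 96.2% of the symbols were found. Reads of near-identical genes may have been divided between them.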

Additional observations from a re-analysis of the deposited data

Results flagged for a closer look

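Among 127 groups of 4 high samples looked at, 13 held a sample apart from the other 3 beyond Dixon's 95% critical value, where chance gives about 1 in 20. Vehicle replicate 1, the high sample with the lowest hair score, was the low one for S100a3 (63.7 CPM), Tchh (670.4), Padi3 (37.0), Crnn (35.6), Crym (20.4), Vsig8 (21.1) and Lepr (59.97), and the high one for the mean of the endothelial list, 4.29 on the log2 scale. Vehicle replicate 2 was low for the mean of the skeletal muscle list (4.57 on the log2 scale) and for Xirp2 (23.8 CPM). Vehicle replicate 3 was low for Car3 (607 CPM). Quinpirole replicate 1 was high for Cpa3, a mast cell protease (32.1 CPM), and low for Cxcr2, a neutrophil receptor (40.8 CPM).

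For 4 results each vehicle sample of the high side moved one way from the low side and the quinpirole sample the other way, with differences that were not tested. The mean of the interferon-gamma and antigen presentation list differed by -0.695 on the log2 scale among vehicle samples and by 0.293 among quinpirole samples. The type I interferon list mean differed by -0.216 and 0.0659. Fasn, the fatty acid synthase gene, differed by -0.747 and 0.414. Ifi27, an interferon-induced gene, differed by -0.411 and 0.687.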

How the results depend on the processing

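The median of 20 lists kept its sign under the settings tried, and that of 10 did not: bulge (-0.06 to 0.60), fat cell, cholesterol synthesis, endothelial, basal keratinocyte, IL-17-induced (-0.55 to 0.31), neutrophil, blood, interferon-gamma (-0.57 to 0.29) and type I interferon genes. Leaving out vehicle replicate 2 took the macrophage median to -0.17, quinpirole replicate 2 took the T cell median to -0.50 and that of smooth muscle to 0.16, and quinpirole replicate 4 took the IL-23 and IL-17 median to -0.31. The count of 315 higher genes was 161 with a pseudocount of 5 CPM and 95 at 4-fold. The count of 102 lower genes was 156 and 51 with pseudocounts of 0.1 and 5 CPM, 59 with scaling to reads outside hair genes, 61 with plain CPM, 66 with treatment as a covariate, 155 among vehicle samples only, 180 among quinpirole samples only (each fewer samples, in which lack of overlap is easier), 155 by edgeR's fitted fold change and 1 at 4-fold. Leaving out 1 sample gave 91 to 196, with 159 without quinpirole replicate 1, 191 without vehicle replicate 5 and 196 without quinpirole replicate 2. For quinpirole against vehicle the 3 calls of limma became 5 with a pseudocount of 0.1, 6 with no filter, 5 with edgeR, 219 with DESeq2, 14 with the hair score as a covariate and 0 to 10 when 1 sample was left out (10 without vehicle replicate 5). The causes were not tested.

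With the replicate number as a replicate block, limma called 0 genes, and 1576 had an unadjusted p under 0.05. Samples with the same number correlated at 0.22, -0.238, 0.194, 0.127 and 0.0951 for numbers 1 to 5, and only for number 1 was the own number the best match, so the numbers were not taken as pairs. The sides share only number 2, so no paired value of their difference was made. With 1 read worth 0.119 to 0.146 CPM, some genes have few reads on the low side, such as S100a3 with 2 and Vsig8 with 6 over the 3 samples, while Tchh has 202.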

Other observations

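Gene families found by symbol among the genes past the 2-fold rule, and chosen after their values were seen, are given here as values. Over all genes, 2.17% were past the rule as higher and 0.704% as lower. Of 35 collagen chains tested, 9 were higher in the high samples and 0 lower, with a median difference of 0.76 on the log2 scale, and 19 were higher at any size without overlap, beside 11.0% of all genes. Col4a1, a chain of the basement membrane network, had 263 to 358 CPM in the high samples and 87.7 to 197 CPM in the low ones, and its partner Col4a2 had 132 to 193 CPM against 50.2 to 100.4 CPM. Of 11 laminin chains, the other large basement membrane proteins, 3 were higher (Lama5, Lamb1 and Lamc3) and 0 lower. Lamb1 had 134 to 162 CPM against 54.3 to 81.5 CPM, and averaged 97.6 CPM in the samples between. Of 17 Adamts proteases, which trim extracellular matrix, 4 were higher, and Adamts20, needed for pigment cells to spread through skin, had 9.05 to 21.5 CPM against 0.419 to 1.75 CPM.

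Of 13 Sox transcription factors 4 were higher, and Sox4 had 23.6 to 37.1 CPM against 7.25 to 10.8 CPM. Of 29 Hox genes, which give regional identity along the body, only Hoxc13 was past the rule, and the median was 0.03. Of 229 solute carriers 10 were higher and 0 lower, beside 2.17% and 0.704% of all genes, and the median was -0.008. Slc7a8, an amino acid transporter among the 10, had 32.8 to 76.0 CPM against 7.97 to 9.92 CPM.

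On the lower side, 4 of 8 Skint genes were past the rule, with a median of -0.85 over the family. Skint5 had 12.8 to 30.6 CPM in the high samples and 31.0 to 45.6 CPM in the low ones, so the sides were separated by a narrow gap. A further family was taken by symbols that begin like those of complex I and cytochrome oxidase subunits, so it can hold genes that are not subunits. Of its 59 genes, 3 were lower past the rule, Cox8b, Ndufa4l2 and Cox6a2, which is also on the skeletal muscle list. At any size 21 were lower without overlap, beside 11.0% of all genes, with a median of -0.22. Of 83 cytosolic ribosomal protein genes 1 was lower past the rule, the muscle form Rpl3l, and the median was -0.08.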
